A study of Mus musculus with 8 samples.

Results

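Regulatory T cells (Treg cells) were picked from single-cell transcriptomes of CD45-sorted cells of mouse brain tumors by what their barcodes contained. Of 39632 barcodes that passed the quality filters in 4 libraries, 642 were Treg cells. A Treg barcode held at least 2 UMIs (unique molecular identifiers, counted mRNA molecules) of the CD3 chains Cd3d, Cd3e and Cd3g together, at least 1 UMI of Foxp3, and no UMI of Cd8a, Cd8b1, Mki67 or Top2a. The 642 barcodes came from 8 in the library vehicle IgG 1, 28 in vehicle IgG 2, 551 in mavrilimumab 1 and 55 in mavrilimumab 2, so 1 library supplied most of them. Because Foxp3, the CD3 chains, the CD8 chains, Mki67 and Top2a chose the cells, their levels are described without a test.

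The mice carried the alleles that the labels write as NestinCreERT2;Fus1;RFPTdT, and developed ependymoma driven by the ZFTA-RELA fusion. Nestin-driven, tamoxifen-inducible Cre recombined the fusion allele in the radial glia of the embryo, so the tumor arose from neural progenitors and the T cells were the host's own. At 3 weeks of age the mice received 1 intrathecal injection of mavrilimumab, an antibody against the GM-CSF receptor alpha chain, at 5 mg/kg, or of a control antibody named Vehicle IgG. The mice were followed until clinical signs set a humane endpoint, and the labels give an age of 6 to 8 weeks for the tissue. The study describes the cells as isolated at tumor recurrence, and a difference in disease stage between treatments cannot be told apart from treatment here. The study labelled blood cells by an intravenous CD45 antibody shortly before death and describes the sorted cells as extravascular. CD45 and Ter119 staining with DAPI guided the sort, and 5-prime gene expression and T cell receptor libraries were made from the sorted cells. Several tumors were pooled for each library, so a library is not 1 mouse, and the p-values below measure the spread between these libraries.

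Treg cells are CD4 T cells that restrain other lymphocytes, and the transcription factor Foxp3 holds their program in place. They bind IL-2 with high affinity through CD25 (Il2ra), draw costimulatory ligands off antigen-presenting cells through Ctla4, and carry the TNF receptor family members OX40 (Tnfrsf4), GITR (Tnfrsf18) and 4-1BB (Tnfrsf9). Treg cells of non-lymphoid tissue express a further set of genes, among them the IL-33 receptor Il1rl1, the chemokine receptor Ccr8 and the growth factor Areg. Naive and recirculating T cells instead express the lymph node homing receptor Ccr7 and the factors Tcf7, Lef1 and Klf2.

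The libraries differed in size and content. They held between 984 and 26746 kept barcodes, and the median depth of a Treg barcode ran from 2448 UMIs in vehicle IgG 2 to 8194.5 in vehicle IgG 1. All Treg barcodes of a library summed to between 67104 UMIs in vehicle IgG 1 and 1923546 in mavrilimumab 1, and levels are given as CPM, the UMIs of a gene scaled to a total of 1000000 UMIs per class and library. On this scale 1 UMI was worth 14.9 CPM in vehicle IgG 1 and 0.520 CPM in mavrilimumab 1. Vehicle IgG 1, with 8 Treg barcodes, fell below the 20 barcodes needed for a fit across genes, and its values are given as a description. Between 0 and 60 barcodes of kept cells were shared by any pair of libraries. The receptor libraries did not follow their labels. The receptor library labelled mavrilimumab 1 shared 90.6% of its cell barcodes with the expression library mavrilimumab 2 and 0.0728% with mavrilimumab 1, the one labelled mavrilimumab 2 shared 86.0% with mavrilimumab 1 and 0.106% with mavrilimumab 2, and the one labelled vehicle IgG 1 shared 94.3% with vehicle IgG 1. Names inside the receptor files gave a further assignment, with the opposite treatment in all 3. Receptors were therefore joined to expression by barcode, and which treatment label is right cannot be told from these files. Comparisons of cell classes within a library do not depend on it, whereas each statement on treatment below rests on the label of the expression library.

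The T cell receptor is the natural barcode of a clone, and the receptors of the largest Treg clones are shown as the leading examples of clonal expansion. A clone is the set of barcodes of 1 library that share the V gene, J gene and CDR3 nucleotides of both chains. The 4 clones with the most Treg barcodes all came from the expression library mavrilimumab 1, with 43, 23, 16 and 16 Treg barcodes. Capitals mark the bases between the end of the V match and the start of the J match, as the deposited annotation gives both matches. A match can run into bases of a D segment, so a sequence without capitals may still hold some.
Clone 1, TRAV9N-3 and TRAJ12, alpha chain: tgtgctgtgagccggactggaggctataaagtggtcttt
Clone 1, TRBV16 and TRBJ2-4, beta chain: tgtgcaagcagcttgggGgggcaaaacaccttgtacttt
Clone 2, TRAV7-6 and TRAJ34, alpha chain: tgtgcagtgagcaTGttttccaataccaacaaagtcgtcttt
Clone 2, TRBV19 and TRBJ2-2, beta chain: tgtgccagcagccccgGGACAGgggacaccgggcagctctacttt
Clone 3, TRAV7-5 and TRAJ37, alpha chain: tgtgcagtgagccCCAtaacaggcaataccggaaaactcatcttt
Clone 3, TRBV26 and TRBJ1-3, beta chain: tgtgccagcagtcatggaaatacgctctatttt
Clone 4, TRAV7-4 and TRAJ37, alpha chain: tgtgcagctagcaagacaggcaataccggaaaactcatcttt
Clone 4, TRBV13-3 and TRBJ2-3, beta chain: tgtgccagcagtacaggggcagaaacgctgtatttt
The alpha chains of clones 3 and 4 used the same J gene, and clones 2, 3 and 4 used different V genes of the TRAV7 family. How common these segments were among the other clones was not tested, so no shared selection is read from them. In mavrilimumab 2 the most Treg barcodes in a clone was 2, reached by 2 clones, of which 1 is shown.
Clone 1 of mavrilimumab 2, TRAV14D-3-DV8 and TRAJ30, alpha chain: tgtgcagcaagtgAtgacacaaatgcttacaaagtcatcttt
Clone 1 of mavrilimumab 2, TRBV1 and TRBJ1-5, beta chain: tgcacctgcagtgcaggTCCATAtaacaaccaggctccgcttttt

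Foxp3 was found in a larger share of T cells without CD8 UMIs than of CD3-negative or CD8 T cell barcodes. In cells that should lack Foxp3, a Foxp3 UMI was found in 1.38%, 0.284%, 1.36% and 0.207% of CD3-negative myeloid barcodes of vehicle IgG 1, vehicle IgG 2, mavrilimumab 1 and mavrilimumab 2, and in 0 of 68, 0 of 2047, 1.73% and 0.746% of CD8 T cell barcodes. Unlike the CD8 class compared below, these CD8 barcodes were taken whether or not they held Foxp3, Mki67 or Top2a UMIs. Over all CD3-negative barcodes of any lineage the shares were 1.50%, 0.149%, 4.49% and 0.381%, and in mavrilimumab 1 these had a median depth of 3425.5 UMIs. Among T cells without CD8 UMIs the shares were 8.55%, 1.33%, 22.9% and 7.82%, at median depths of 11745, 2599, 3450 and 9080.5 UMIs against 11485, 6033.5, 7217 and 7136 in the myeloid barcodes. The share in T cells was above these other shares of its own library in all 4, and the gap was smallest in vehicle IgG 2. These shares were not set against free RNA, and its part in the Foxp3 detections was not tested. Foxp3 lies on chromosome X at 7579676 to 7595243 of the mouse assembly GRCm38.p6, the release behind the mm10 build of the files.

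Barcodes with 1 Foxp3 UMI, just inside the threshold, already carried the other markers of the label. From 0 Foxp3 UMIs in Cd4-positive T cells to 1 UMI and to 2 or more, Il2ra read 59.8, 351 and 966 CPM in vehicle IgG 2, 26.3, 268 and 270 CPM in mavrilimumab 1, and 17.7, 389 and 667 CPM in mavrilimumab 2. Ikzf2, which encodes the Treg transcription factor Helios, read 52.3, 701 and 778 CPM in vehicle IgG 2, 476, 1905 and 1833 CPM in mavrilimumab 1, and 49.8, 849 and 1204 CPM in mavrilimumab 2. The step from 0 to 1 UMI was the larger one for both genes in mavrilimumab 1, whereas Il2ra climbed further from 1 to 2 or more UMIs in the other 2 libraries. In vehicle IgG 1 the 3 barcodes with 1 Foxp3 UMI had no UMI of Il2ra, Ikzf2 or Tnfrsf4, while the 5 with 2 or more had 523, 1698 and 566 CPM. Ctla4 followed the same order in all 4 libraries, for instance with 194, 498 and 966 CPM in vehicle IgG 2.

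**Figure D1:**
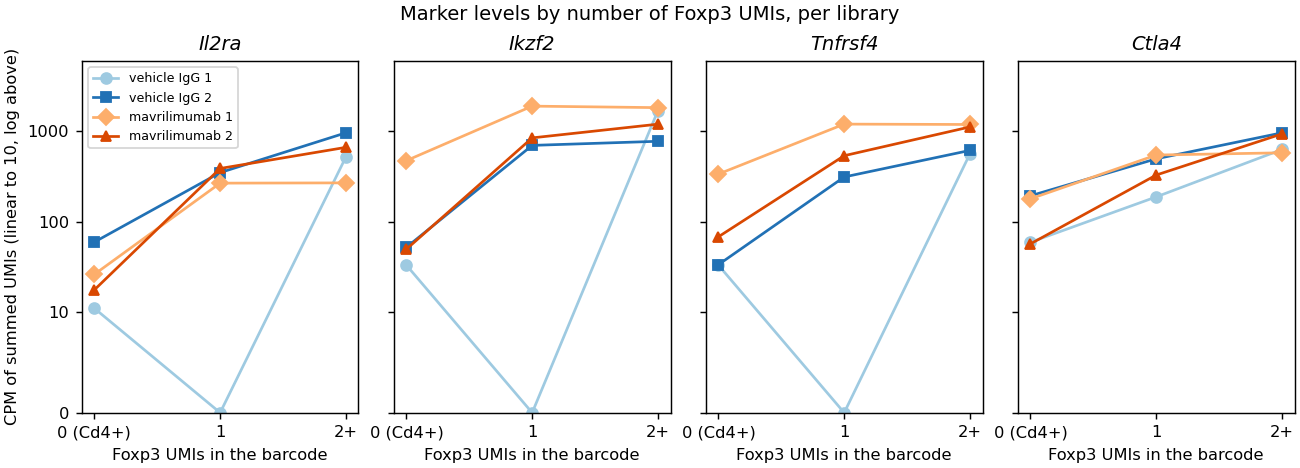
Levels of Il2ra, Ikzf2, Tnfrsf4 and Ctla4 in CPM of summed UMIs (axis linear to 10 and logarithmic above) in T cells without CD8, Mki67 or Top2a UMIs, by the number of Foxp3 UMIs in the barcode, with 1 line per library. The point at 0 stands for Cd4-positive T cells, and the markers are higher at 1 UMI than at 0 in vehicle IgG 2, mavrilimumab 1 and mavrilimumab 2, while Il2ra, Ikzf2 and Tnfrsf4 are at 0 in the 3 barcodes of vehicle IgG 1 with 1 Foxp3 UMI.

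Against Cd4-positive, Foxp3-negative T cells of the same library, Treg cells had more Il2ra, Ikzf2, Tnfrsf4 and Ctla4 and less Tcf7, Ccr7 and Cd40lg. Treg barcodes needed no Cd4 UMI, which was found in 87.5%, 25%, 56.6% and 76.4% of them, whereas the comparison cells needed 1. Of 9221 genes tested in 3 libraries with edgeR's quasi-likelihood test, the library as a block and Benjamini-Hochberg adjustment over all genes, 482 (5.23%) differed at an adjusted p under 0.05. They split into 287 (3.11%) higher and 195 (2.11%) lower in Treg cells, and 452 of the 482 had the same direction in all 3 libraries. The list counts below stand next to these shares. Of 6354 genes tested without mavrilimumab 1, 256 were higher and 181 lower. Without vehicle IgG 2 it was 430 and 231 of 10466, and without mavrilimumab 2 178 and 130 of 9778. By DESeq2 it was 144 and 106 of 9221, and where CD4 cells needed no Cd4 UMI 210 and 277 of 11451. In that setting the comparison class held every T cell without Foxp3, CD8 chain, Mki67 or Top2a UMIs, of the CD4 lineage or not. It grew from 104 to 2027 barcodes in vehicle IgG 2, from 1075 to 1931 in mavrilimumab 1 and from 290 to 599 in mavrilimumab 2. Receptor segments, ribosomal and mitochondrial genes and gene models without a name made up 75 of the calls and are not named.

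Il2ra (ENSMUSG00000026770, chromosome 2, 11642792 to 11693194) was at 601 CPM in the Treg cells of vehicle IgG 2, 269 CPM in mavrilimumab 1 and 602 CPM in mavrilimumab 2, against 59.8, 26.3 and 17.7 CPM in Foxp3-negative CD4 cells. Every Treg value lay above every CD4 value, and the log2 fold change was 3.89 ± 0.28 (SE, n = 3 libraries, edgeR adjusted p = 1.41e-06). Ikzf2 (ENSMUSG00000025997, chromosome 1, 69531207 to 69687351) was at 732, 1855 and 1121 CPM against 52.3, 476 and 49.8 CPM, a log2 fold change of 3.17 ± 0.35. The CD4 cells of mavrilimumab 1 had more Ikzf2 than those of the other 2 libraries, though less than any Treg sum. Tnfrsf4 (ENSMUSG00000029075, chromosome 4, 156013595 to 156016613) was at 437, 1197 and 986 CPM against 33.6, 338 and 68.3 CPM (log2 fold change 2.82 ± 0.31), and Ctla4 (ENSMUSG00000026011, chromosome 1, 60909025 to 60915832) at 689, 571 and 798 CPM against 194, 180 and 57.1 CPM (2.36 ± 0.30). In vehicle IgG 1, which was not in the fit, the 8 Treg barcodes had 358, 1162, 387 and 492 CPM of Il2ra, Ikzf2, Tnfrsf4 and Ctla4 against 11.1, 33.2, 33.2 and 59.5 CPM in its CD4 cells. The summed Treg values of these 4 markers lay above the CD4 values in each of the 4 libraries.

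Most core Treg genes tested were higher. The lists here and below were chosen with earlier results of these data known, and this one includes Il2ra, Ikzf2, Tnfrsf4 and Ctla4. Of 22 genes of a core list, 19 were tested and 16 were higher in Treg cells, none was lower, and the median log2 fold change was 1.93 against -0.01 over all genes tested. Lrrc32, the surface anchor of latent TGF-beta, showed the steepest rise, with 43.7, 24.4 and 39.5 CPM in Treg cells and 0, 0 and 0.804 CPM in CD4 cells of the 3 libraries (log2 fold change 6.29 ± 0.72, edgeR adjusted p = 6.38e-05). Tnfrsf9, next after Il2ra, was higher too, with 284, 481 and 474 CPM against 11.2, 62.1 and 17.3 CPM (3.69 ± 0.29). Ebi3, a subunit of the cytokine IL-35, Ikzf4, the Helios relative Eos, and the actin-capping protein gene Capg rose by 2.74, 2.55 and 2.19 on the log2 scale. Tnfrsf18, the integrin chain Itgb8, the TNF receptor Tnfrsf1b, the ectonucleotidase Entpd1 and the semaphorin receptor Nrp1 rose by 1.93, 1.88, 1.47, 1.39 and 1.21. The genes tested that missed the threshold were Nt5e at 0.81, Il2rb at 0.69 and Tgfb1 at 0.52. Of the suppressive cytokines, Il10 had 0, 15 and 6 UMIs in the Treg sums of the 3 libraries and Il12a none, both too few to test.

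Genes of tissue-resident and effector Treg cells were also higher, with 15 of 25 tested genes up, none down and a median log2 fold change of 1.34. Without mavrilimumab 2, 9 of 25 were up and 1 down (median 0.67), and where CD4 cells needed no Cd4 UMI 8 were up and 1 down (median 0.69), a setting in which 4.25% of all genes tested passed, 1.83% higher and 2.42% lower. Klrg1, a receptor of terminally differentiated Treg cells, was at 131, 48.9 and 216 CPM against 0, 5.81 and 0.402 CPM (4.73 ± 0.57). Itgae, the integrin chain CD103 that binds epithelial cadherin, was at 76.5, 190 and 156 CPM against 14.9, 20.7 and 2.01 CPM (3.77 ± 0.38). Treg values of both genes lay above all CD4 values in these 3 libraries, whereas in vehicle IgG 1 Klrg1 was at 14.9 CPM (1 UMI) in Treg cells and 16.6 CPM in CD4 cells. Areg, which supports tissue repair, was at 142, 39.0 and 18.6 CPM against 11.2, 6.06 and 0.402 CPM (3.15 ± 0.45), and the IL-33 receptor Il1rl1 at 186, 28.6 and 65.1 CPM against 3.73, 5.30 and 5.63 CPM (3.13 ± 0.41). For Areg and Il1rl1 the highest Treg level was that of vehicle IgG 2, in which 13 and 17 UMIs stood behind it. Ccr8, Fgl2, Ccr2, Ccr4, Samsn1, Prdm1 and Icos rose by between 1.61 and 2.70, and Maf, Rora and Gata3 by 1.19, 1.09 and 0.81. Batf, Irf4, Cxcr3, Bhlhe40, Nfil3, Il1r2, Il18r1, S100a4 and Cxcr6 were among those that missed the threshold, Cxcr6 with the only negative value (-0.92).

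Naive and recirculating genes moved the other way. Of 14 tested, 13 were lower in Treg cells and none was higher (median log2 fold change -1.43), and the exception was the costimulatory receptor Cd27 at 0.30. Tcf7, which encodes the factor TCF-1 of naive and memory T cells, was at 65.6, 54.1 and 126 CPM in Treg cells and 538, 413 and 803 CPM in CD4 cells (-2.93 ± 0.19, edgeR adjusted p = 7.59e-07). Ccr7 was at 54.7, 20.8 and 184 CPM against 396, 111 and 589 CPM (-2.22 ± 0.21). All Treg values of Tcf7 lay below all CD4 values, whereas for Ccr7 the Treg value of mavrilimumab 2 exceeded the CD4 value of mavrilimumab 1. Igfbp4, Dapl1, Actn1 and Lef1 had log2 fold changes of -3.12, -3.02, -2.20 and -1.67, and in mavrilimumab 2 all 15 Dapl1 UMIs of Treg cells sat in 1 barcode. S1pr1, which lets T cells leave lymphoid tissue, and the IL-7 receptor gene Il7r had -1.24 and -1.14. The size of the naive group depended on the comparison cells: when a Cd4 UMI was no longer asked of them, 5 of 14 were lower. Where Treg cells needed a Cd4 UMI as well, which left 2 libraries, 6 of 21 core, 3 of 25 tissue and 3 of 14 naive genes passed in these directions, with medians of 2.02, 1.37 and -1.52. Over all 10103 genes tested there, 27 were higher and 21 lower. Without the library as a block none passed, with medians of 1.85, 1.08 and -1.66, against 1.93, 1.34 and -1.43 with it.

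**Figure D2:**
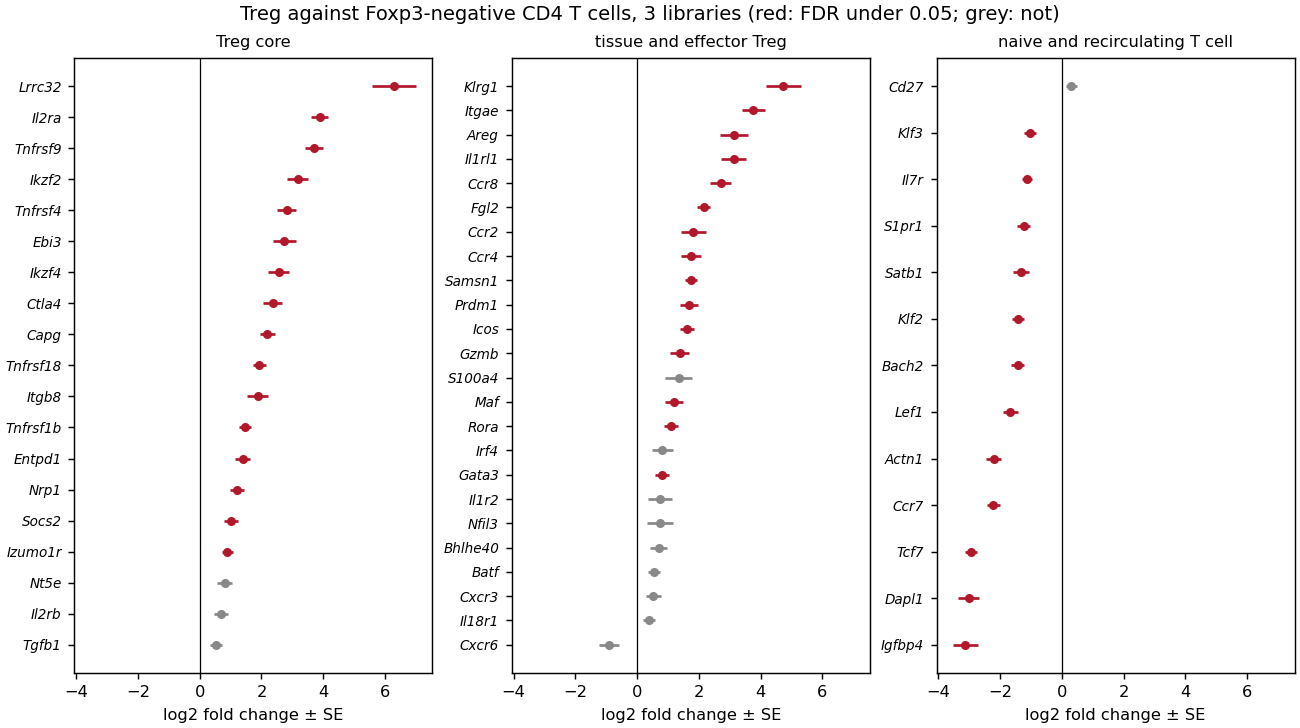
Log2 fold change of Treg cells against Foxp3-negative CD4 T cells (x axis, bars ± SE, 3 libraries) for tested genes of the core Treg, tissue and effector Treg, and naive and recirculating lists, red where the edgeR adjusted p was under 0.05. The core and tissue lists lie to the right of 0 except Cxcr6 (-0.92), and the naive list to the left except Cd27 (0.30).

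Helper and cytotoxic genes were mostly at or below the CD4 level. Cd40lg, the signal that helper T cells give to B cells and dendritic cells, was at 21.9, 15.6 and 46.5 CPM against 164, 161 and 172 CPM (-2.85 ± 0.27, edgeR adjusted p = 1.40e-05), with no overlap. It was the sole call among 9 tested of the 19 helper genes (median -0.60). Without vehicle IgG 2, 4 of 10 were lower and 1 higher, and where CD4 cells needed no Cd4 UMI 7 of 13 were lower (median -2.19). Il2, which Treg cells consume but do not make, had no UMI in any Treg sum, against 1, 1, 63 and 14 UMIs in the CD4 sums of the 4 libraries. Of 11 tested cytotoxic genes, Gzmk (-3.97 ± 0.34), Fasl (-1.70) and Nkg7 (-1.44) were lower and Gzmb was higher (1.37 ± 0.32), for a list median of -0.83. Where CD4 cells needed no Cd4 UMI, 9 of 14 were lower and none higher (median -2.05). Gzmb, a granzyme that Treg cells can use against other lymphocytes, was at 415, 114 and 395 CPM against 56.0, 98.0 and 87.2 CPM, and its direction turned to -0.74 when comparison cells needed no Cd4 UMI. Among checkpoint receptors, Tigit was higher at 109, 382 and 184 CPM against 29.9, 150 and 25.7 CPM (1.83 ± 0.25), the exhaustion factor Tox was higher (1.00) and Btla was lower (-1.03), while Pdcd1, which encodes PD-1, missed the threshold at 1.04 ± 0.31 (adjusted p = 0.0696). The 2 higher of 9 checkpoint genes became 4 of 7 without mavrilimumab 1, 4 of 11 without vehicle IgG 2 and 1 of 9 without mavrilimumab 2.

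Signalling genes gave smaller differences, next to 3.11% of all genes tested higher and 2.11% lower. Over all genes, 256 of 6354 were higher without mavrilimumab 1 and 430 of 10466 without vehicle IgG 2. Without mavrilimumab 2, 178 were higher and 130 lower of 9778. By DESeq2 144 of 9221 were higher, and where CD4 cells needed no Cd4 UMI 1.83% of genes were. Of 13 genes of the IL-2 and STAT5 pathway, the feedback inhibitor Cish (1.68), the survival gene Bcl2l1 (1.24), Socs2 (1.00) and the kinase gene Pim1 (1.03) were higher and Bcl2 was lower (-1.19). The 4 higher became 6 without mavrilimumab 1, 2 without mavrilimumab 2 or by DESeq2, and 1 where CD4 cells needed no Cd4 UMI. Of 13 NF-kB genes, Nfkbia (1.09), Bcl3 (1.05) and Nfkb2 (0.86) were higher and none was lower, against 1 of 13 higher without mavrilimumab 2 or by DESeq2 and 6 of 13 where CD4 cells needed no Cd4 UMI. In the interferon-stimulated list 2 of 33 were higher, Oas1a (1.15) and Gbp7 (0.80), and this list turned on which library entered: 9 of 31 were higher without mavrilimumab 1, 6 of 33 without vehicle IgG 2, and 0 were higher and 1 was lower of 33 without mavrilimumab 2. Of 19 immediate early genes, the phosphatase gene Dusp1 alone was called (0.99), against 3 of 14 without mavrilimumab 1. The main counts of this list and of the interferon list were near the 5.23% called over all genes.

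Of the largest rises outside these lists, Frmd5, a FERM domain gene, was at 470, 98.3 and 158 CPM against 22.4, 9.09 and 0 CPM (4.41 ± 0.45). Rln3, a relaxin peptide gene, rose by 4.46 ± 0.36 with 21.9, 224 and 188 CPM against 3.73, 14.9 and 2.01 CPM. Its Treg UMIs were spread over 122 barcodes in mavrilimumab 1, but 44 of 81 were in 1 barcode of mavrilimumab 2 and both of vehicle IgG 2 were in 1 barcode. C1qtnf12 and Ankrd55 rose by 3.44 ± 0.43 and 3.43 ± 0.65, and Nckap5 by 4.09 ± 0.83, with 21 of its 22 UMIs of mavrilimumab 2 in 1 barcode. Among the largest falls were Pdlim4 (-3.79), Tdrp (-3.66), the neurotrophin receptor gene Ntrk3 (-3.16), Hs3st3b1 (-3.08), Nsg2 (-2.96) and Mctp2 (-2.88). Ntrk3 was at 0, 5.72 and 2.33 CPM in Treg cells against 41.1, 42.7 and 32.6 CPM, with no overlap in these 3 libraries.

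Some calls were carried by few Treg barcodes. Antigen-presentation genes of the dendritic list were higher in Treg cells, Cd209a by 3.16 ± 0.44, Cd74 by 2.03 ± 0.51 and H2-Aa by 1.68 ± 0.39, 3 of 4 tested and 1 of 4 by DESeq2. The list had 181, 3893 and 718 UMIs in the Treg sums of vehicle IgG 2, mavrilimumab 1 and mavrilimumab 2, and a single barcode held 178, 658 and 637 of them. Without that barcode the list fell from 1979 to 36.9 CPM in vehicle IgG 2, from 2024 to 1690 CPM in mavrilimumab 1 and from 1670 to 198 CPM in mavrilimumab 2. In mavrilimumab 1 the Cd74 UMIs were spread over 226 of the 551 barcodes. The macrophage gene Lyz2 was called too (2.02 ± 0.45), with 22 of 23 UMIs of vehicle IgG 2 and 52 of 52 of mavrilimumab 2 in 1 barcode, although the microglia and macrophage list as a whole gave 1 call of 12 and a median of -0.25, and had 3 of 10 lower without mavrilimumab 2 and 6 of 12 lower with at least 2 Foxp3 UMIs (median -1.38). In the erythroid and endothelial list, Pecam1 was lower (-0.86). The B cell list summed to 0, 10.9, 1327 and 20.9 CPM in the Treg cells of vehicle IgG 1, vehicle IgG 2, mavrilimumab 1 and mavrilimumab 2, and to 1.38, 3.73, 1107 and 23.7 CPM in the CD4 cells. The part of doublets and free RNA in these levels was not tested.

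Against CD8 T cells, 1403 of 10948 genes tested (12.8%) differed by the same edgeR test, 727 (6.64%) higher and 676 (6.17%) lower in Treg cells. The Treg sums are shared with the CD4 comparison, so the results are not independent. Core genes were higher in 16 of 18 tested and lower in none (median log2 fold change 2.84). Tnfrsf4 was at 437, 1197 and 986 CPM in Treg cells against 3.50, 9.66 and 3.51 CPM in CD8 cells, a log2 fold change of 7.21 ± 0.23 (edgeR adjusted p = 1.06e-09). Izumo1r, the folate receptor 4 of Treg cells, was at 317, 430 and 237 CPM against 7.83, 11.2 and 11.8 CPM (4.72 ± 0.22), compared with 0.89 ± 0.17 against CD4 cells. All 14 cytotoxic genes were lower (median -3.68), with Nkg7 at 54.7, 134 and 69.8 CPM against 1673, 2637 and 1528 CPM. Gzmb, higher than in CD4 cells, was lower than in CD8 cells (-2.14). Areg (8.12), Il1rl1 (5.82), Ccr4 (5.65) and the decoy receptor gene Il1r2 (4.44) led the tissue genes, of which 18 of 25 were higher and 3 lower, while Itgae, which CD8 cells also express, did not pass (0.65).

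Calls were more numerous against CD8 cells over all genes (12.8% against 5.23% for CD4 cells) and in the NF-kB and immediate early lists. The CD8 sums of vehicle IgG 2, mavrilimumab 1 and mavrilimumab 2 held 4853472, 6417271 and 11681332 UMIs. The CD4 sums held 267773, 3961133 and 2487636, so the numbers of calls do not compare the sizes of the differences. In the interferon-stimulated list 0 of 33 were higher and 1 was lower. Over all genes 6.64% were higher and 6.17% lower, with 432 of 11602 higher without mavrilimumab 1. Without mavrilimumab 2, 441 were higher and 454 lower of 12021. Of 13 NF-kB genes 9 were higher, or 4 without mavrilimumab 1 and 4 without mavrilimumab 2, among them Nfkbia (1.74), Bcl3 (1.65), the inhibitor Tnfaip3 (1.09) and Tank (0.96). Of 19 immediate early genes 9 were higher and 2 lower. Nr4a1, a target of T cell receptor signalling, was at 43.7, 47.3 and 44.2 CPM against 5.77, 6.70 and 3.77 CPM (2.91 ± 0.36), and Fos was at 831, 124 and 574 CPM against 220, 53.8 and 150 CPM (1.49 ± 0.15). Treg values of Nr4a1 did not overlap those of CD8 cells, whereas Fos in the Treg cells of mavrilimumab 1 lay below the CD8 values of the other 2 libraries. Naive genes were lower in 8 of 14, or 5 without mavrilimumab 2, and Cd160 (-5.06) and Cd244a (-2.29) were the lowest of the checkpoint genes called.

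The GM-CSF axis, the target of the antibody, was thinly covered. In the Treg sums of vehicle IgG 1, vehicle IgG 2, mavrilimumab 1 and mavrilimumab 2, Csf2, the gene of GM-CSF, had 0, 0, 2 and 0 UMIs, and Csf2ra, the receptor chain that mavrilimumab binds, had 0, 1, 39 and 11 UMIs. Csf2ra was detected in 21 of 551 Treg barcodes of mavrilimumab 1 and 5 of 55 of mavrilimumab 2. Neither Csf2ra (0.59 ± 0.41) nor the shared beta chain gene Csf2rb (0.48 ± 0.57) was called against CD4 cells, and 0 of 3 genes tested passed, with 1 at an unadjusted p under 0.05. In this list 1 of 3 was higher without vehicle IgG 2 or by limma-voom, and 1 of 4 was lower where CD4 cells needed no Cd4 UMI. Against CD8 cells Csf2rb (3.04 ± 0.73) and the IL-3 receptor gene Il3ra (1.11 ± 0.34) were higher, 2 of 4 tested, with Csf2rb at 10.9, 7.80 and 13.95 CPM against 0.618, 0.935 and 1.46 CPM. All 6 Csf2rb UMIs of mavrilimumab 2 came from 1 Treg barcode, and vehicle IgG 2 had 1 UMI.

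Treg cells made up a variable share of the CD4 lineage. Of Treg and Foxp3-negative CD4 barcodes together, 10.96% were Treg cells in vehicle IgG 1 (8 of 73, exact 95% interval 4.85 to 20.5%), 21.2% in vehicle IgG 2 (14.6 to 29.2%), 33.9% in mavrilimumab 1 (31.6 to 36.2%) and 15.9% in mavrilimumab 2 (12.2 to 20.2%). These intervals, like all intervals here, cover counting error only. The value of mavrilimumab 2 lay between those of the vehicle libraries, an order that depended on how cells were counted. With a Cd4 UMI asked of Treg cells too, the shares were 9.72% and 6.31% in the vehicle libraries and 22.5% and 12.7% in the mavrilimumab libraries. With a Cd4 UMI asked of neither class they were 7.69%, 1.36%, 22.2% and 8.41%. These are shares of T cells without CD8 UMIs, of the CD4 lineage or not, and the Foxp3-negative class of vehicle IgG 2 grew from 104 to 2027 barcodes. With at least 2 Foxp3 UMIs the shares were 7.14%, 9.57%, 25.3% and 12.7%. In these 3 countings both mavrilimumab libraries lay above both vehicle libraries, with an exact permutation p at the smallest value the design allows. From 2000 UMIs the shares were 10.96%, 31.0%, 33.2% and 16.1%, with vehicle IgG 2 above mavrilimumab 2. That order also held at 5% mitochondrial UMIs. It held again without barcodes with 2 or more other-cell UMIs, or over 1% of UMIs from another cell type's list. In each of these the exact permutation p was 0.667. The means were 16.1% ± 7.25 (SD, n = 2) for vehicle IgG and 24.9% ± 12.7 (SD, n = 2) for mavrilimumab, a difference of 8.83 percentage points with a two-sided exact permutation p = 0.667, where 2 against 2 libraries cannot go below 0.33. Without mavrilimumab 1 the difference was -0.144 points.

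The share of cycling cells was compared between Treg and CD4 cells in the 3 larger libraries. Before barcodes with Mki67 or Top2a UMIs were set aside, such barcodes were 22.2%, 24.5% and 22.5% of Foxp3-positive T cells and 20.6%, 22.8% and 20.5% of Foxp3-negative CD4 cells in vehicle IgG 2, mavrilimumab 1 and mavrilimumab 2. The paired difference was 1.78 points ± 0.190 (SD, n = 3), higher in 3 of 3 libraries, and is given without a test because these genes chose the cells. After each barcode was thinned to 1000 UMIs the difference was -1.18 points, lower in 3 of 3, so no direction is read from it. In vehicle IgG 1, too small to enter this comparison, 5 of 13 Foxp3-positive barcodes were cycling (38.5%, exact interval 13.9 to 68.4%) against 23 of 88 CD4 barcodes (26.1%, 17.3 to 36.6%).

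Clonal expansion of Treg cells was high in 1 library. A clone was called expanded with 2 or more barcodes over all T cells of its library. In the expression library mavrilimumab 1, 310 of 461 Treg barcodes with both chains were in expanded clones, 67.2% (exact interval 62.8 to 71.5%), against 45.7% of 967 CD4 barcodes (42.5 to 48.9%) and 57.0% of 1236 CD8 barcodes (54.2 to 59.8%). In mavrilimumab 2 the share was 10.6% of 47 Treg barcodes (3.55 to 23.1%), 3.54% of 254 CD4 barcodes (1.63 to 6.62%) and 25.1% of 910 CD8 barcodes. In vehicle IgG 1 it was 0 of 6 Treg barcodes (exact interval up to 45.9%) and 0 of 58 CD4 barcodes. A clone counts as expanded only where 2 of its barcodes were sampled, so these shares depend on the number of T cells sampled. Receptor barcodes joined to vehicle IgG 1, mavrilimumab 1 and mavrilimumab 2 numbered 182, 4867 and 2491. The intervals do not cover this dependence. They also treat the barcodes of 1 clone as independent draws, although 1 clone of mavrilimumab 1 held 43 of the 310 Treg barcodes. They are therefore too narrow, and no separation between classes is read from them. The Treg share exceeded the CD4 share by 21.5, 7.09 and 0 points, a mean of 9.54 ± 10.98 (SD, n = 3). This mean was smaller than its spread between libraries, but its value of 0 rests on the 6 Treg barcodes of vehicle IgG 1. The receptor file of vehicle IgG 2 was not analysed here. At least 2 beta chains, a sign of 2 cells behind 1 barcode, were found in 3.34% of Treg, 3.12% of CD4 and 3.33% of CD8 barcodes of mavrilimumab 1.

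**Figure D3:**
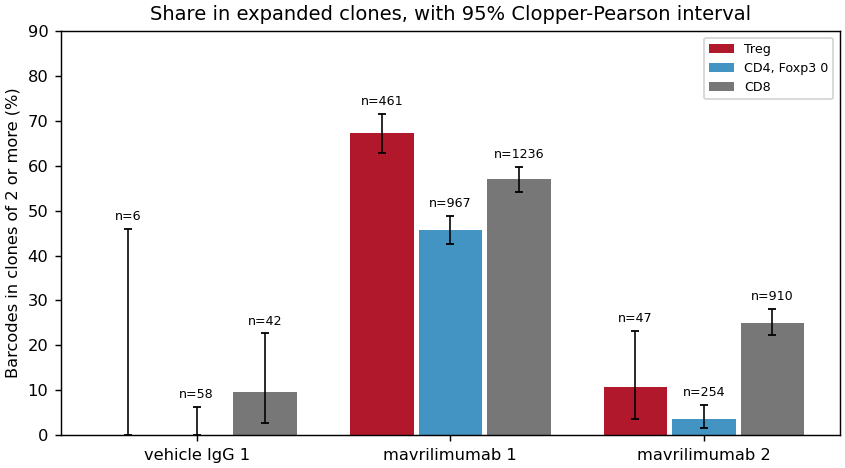
Share of barcodes with both receptor chains (y axis, percent) that belong to clones of 2 or more barcodes, for Treg, Foxp3-negative CD4 and CD8 T cells in the 3 expression libraries with receptors, with exact 95% intervals and the number of barcodes. The share was 67.2% in Treg and 45.7% in CD4 cells of mavrilimumab 1, and 10.6% and 3.54% in mavrilimumab 2. The intervals treat barcodes of 1 clone as independent and are therefore too narrow.

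The 461 Treg barcodes of mavrilimumab 1 fell into 245 clones, 94 of them expanded and 54 with at least 2 Treg barcodes. Of the 245 clones, 33 (13.5%) also held Foxp3-negative CD4 barcodes, which was 4.56% of the 723 CD4 clones, and 2 (0.816%) held CD8 barcodes. Those 33 clones contained 201 of the 461 Treg barcodes, and 44 clones also held cycling Foxp3-positive barcodes. Clone 1 had 67 barcodes in all, 43 of them Treg cells, 4 Foxp3-negative CD4 cells, 6 cycling Foxp3-positive cells, 1 CD8 cell and 13 other T cells. Clone 2 had 43 barcodes, of which 23 were Treg and 10 were cycling Foxp3-positive cells. In mavrilimumab 2 none of 45 Treg clones was shared with CD4 cells.

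Foxp3-negative CD4 cells that shared a clone with Treg cells had an Ikzf2 level near that of Treg cells. In mavrilimumab 1, 98 such barcodes had 1813 CPM of Ikzf2 (exact Poisson 95% interval 1670 to 1965 CPM), next to 1827 CPM (1761 to 1895) in Treg cells and 322 CPM (303 to 342) in the 869 CD4 barcodes of other clones. Tnfrsf4 and Tnfrsf9 were in between, with 679 and 232 CPM in the clone mates, 1236 and 496 CPM in Treg cells, and 302 and 43.3 CPM in the other CD4 cells. Il2ra was at 88.7 CPM (59.4 to 127) in the clone mates against 243 CPM in Treg cells and 20.4 CPM in the rest, and Ctla4 at 355, 547 and 160 CPM in the same order. Cd40lg and Tcf7 ran the other way, at 73.4 and 147 CPM in the clone mates, 13.9 and 49.8 CPM in Treg cells, and 170 and 435 CPM in the rest. Median depths were 2934.5, 3019 and 3435 UMIs. This was seen in 1 library, was chosen after its values were known and has no test, and the clone mates are part of the CD4 cells to which Treg cells were compared above.

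Within the Treg cells of mavrilimumab 1, the 310 in expanded clones had more Itgae (243 against 115 CPM), Ccr8 (152 against 58.3), Itgb8 (171 against 49.5), Pdcd1 (325 against 161), Lag3 (74.6 against 17.7) and Tigit (473 against 221) than the 151 that were alone in their clone, and less Klf2 (66.7 against 286), Tcf7 (23.5 against 97.2), Klrg1 (11.8 against 76.0) and Il1rl1 (12.8 against 63.6). Foxp3 was at 802 and 751 CPM. The large clones differed among themselves: Itgae was at 482, 132 and 49.2 CPM in clones 1, 2 and 3 and at 204 CPM in expanded clones without clone 1. Pdcd1 was at 112, 1071 and 246 CPM in clones 1, 2 and 3. Tcf7 was at 6.99, 0 and 148 CPM, from 1, 0 and 9 UMIs. Clone 1 read below the lone cells in Pdcd1, and clone 3 read below them in Itgae and above them in Tcf7. The exact Poisson intervals overlapped in each of these contrasts, so no order is read from them. For Pdcd1 they were 63.9 to 182 CPM in clone 1 against 129 to 197 CPM in the lone cells. Clone 3 had 10.2 to 144 CPM of Itgae (3 UMIs) against 88.7 to 146 CPM. Its Tcf7 interval was 67.5 to 280 CPM against 73.2 to 127 CPM. These values come from 1 library and have no test.

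**Figure D4:**
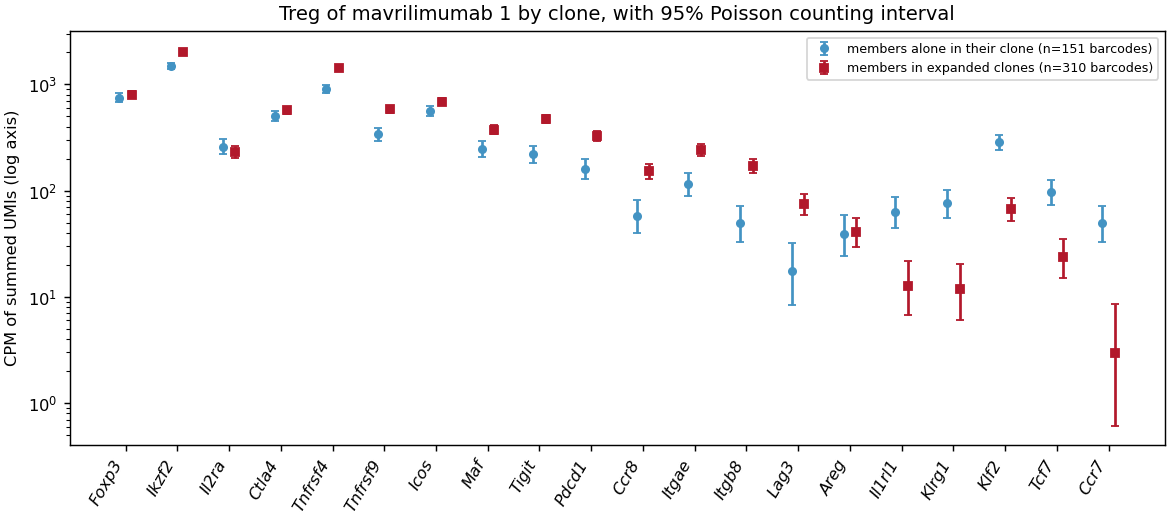
Levels of named genes in CPM of summed UMIs (logarithmic axis) in Treg cells of the library mavrilimumab 1 that were alone in their clone (151 barcodes) or in expanded clones (310 barcodes), with exact 95% Poisson intervals for counting error. Ccr8, Itgae, Itgb8 and Lag3 are higher in expanded clones, while Klf2, Tcf7, Ccr7, Klrg1 and Il1rl1 are lower.

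Between treatments, Treg cells of the 2 mavrilimumab libraries had more interferon-stimulated transcripts than those of vehicle IgG 2 and fewer neural transcripts. This comparison had 1 vehicle library with 28 Treg barcodes against 2, and that lone library was assumed to vary like the others. Of 7807 genes tested, 176 (2.25%) differed by edgeR's quasi-likelihood test, 20 (0.256%) higher and 156 (2%) lower under mavrilimumab. When vehicle IgG 1 with its 8 barcodes was added, 0 genes passed, with 425 at an unadjusted p under 0.05.

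Of 33 interferon-stimulated genes, 10 were higher and none lower, with 6 of 33 higher by DESeq2, 0 of 33 passing by limma-voom and 0 of 32 once vehicle IgG 1 was added. The median log2 fold change was 2.31, or 2.12 with Mx1 and Cmpk2, absent from vehicle IgG 2, set at the bound that 3 UMIs allow, against 0.11 over all genes tested. Isg15, a ubiquitin-like interferon effector, was at 32.8 CPM (3 UMIs) in vehicle IgG 2, 891 CPM in mavrilimumab 1 and 721 CPM in mavrilimumab 2 (4.61 ± 0.49, adjusted p = 0.00599), and at 59.6 CPM in vehicle IgG 1. Ifit1, which binds viral RNA, was at 10.9, 348 and 465 CPM (5.19 ± 0.67), and at 74.5 CPM in vehicle IgG 1. Both genes were thus lower in both vehicle libraries than in both mavrilimumab libraries. Outside the list, Cxcl10, a chemokine that attracts Cxcr3-bearing T cells, had no UMI in either vehicle library and 274 and 326 CPM under mavrilimumab, at least 9.15-fold higher than the floor of 3 UMIs in vehicle IgG 2, but in mavrilimumab 2 101 of its 140 UMIs came from 1 barcode. The antiviral gene Mx1 of the list was at least 4.24-fold and the RNA sensor gene Rigi, outside it, at least 6.22-fold higher than that floor, yet vehicle IgG 1 held 2 Mx1 UMIs and 7 Rigi UMIs (29.8 and 104 CPM). Socs1, an inhibitor of cytokine receptor signalling from the IL-2 list (1 of 13 called), rose by 2.23 against vehicle IgG 2 (98.4, 493 and 435 CPM), but vehicle IgG 1 had 671 CPM. Ifi213 rose by 3.62. The summed list was at 5633, 2438, 11994 and 9793 CPM in Treg cells of vehicle IgG 1, vehicle IgG 2, mavrilimumab 1 and mavrilimumab 2, and at 5588, 2386, 11121 and 4552 CPM in CD4 cells, so these sums were close within a library except in mavrilimumab 2. In the CD4 sum of vehicle IgG 1, 583 of 4040 UMIs sat in 1 barcode. By the median barcode, the list took 0.464%, 0.230%, 0.964% and 0.457% of UMIs in Treg cells and 0.286%, 0.179%, 0.682% and 0.225% in CD4 cells in the same order. The Treg median was the higher in 4 of 4 libraries, which was not tested, and the median Treg barcode of mavrilimumab 2 did not exceed that of vehicle IgG 1.

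Neural and tumor genes were among the falls. The 10 of 14 neural and tumor genes that passed the filter on low counts had a median log2 fold change of -8.62, or -7.56 with Fabp7 at its bound. A gene could pass that filter through vehicle IgG 2 alone, where the list was high. Their shared direction is therefore given as a description and not as a test. The list was at 44.7, 3596, 28.6 and 58.1 CPM in Treg cells of the 4 libraries and at 18.0, 2681, 16.4 and 55.5 CPM in their CD4 cells, so that vehicle IgG 2 stood apart from vehicle IgG 1 in both classes. In vehicle IgG 2 the list was found in 26 of 28 Treg barcodes, and the leading barcode held 73 of its 329 UMIs. The largest falls were Nrxn3, Dcc, Ptn, Rbfox1 and Dlx6os1, genes of neurons and glia with 3476, 2208, 940, 907 and 623 CPM in vehicle IgG 2 and no UMI in the mavrilimumab libraries. In 1 barcode of vehicle IgG 2 lay 310 of the 318 Nrxn3 UMIs, 184 of 202 of Dcc, 65 of 86 of Ptn, 82 of 83 of Rbfox1 and 52 of 57 of Dlx6os1. Nnat, by contrast, was spread over 21 of the 28 barcodes, at 885 CPM against 0.520 and 4.65 CPM (-9.24 ± 0.57). The lipid carrier gene Apoe was lower as well, at 2536 CPM against 24.95 and 41.9 CPM (-6.34 ± 0.41), and was at 44.7 CPM in vehicle IgG 1. Neural content moved with the library and cannot be told apart from treatment in this fit.

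The markers of the label were not called between treatments. Il2ra was at -0.48 ± 0.52, Ikzf2 at 1.01 ± 0.43, Tnfrsf4 at 1.31 ± 0.35 and Ctla4 at -0.02 ± 0.36 on the log2 scale, and 0 of 20 core and 0 of 24 tissue genes passed the edgeR test, with 5 and 8 at an unadjusted p under 0.05. The fit had little power: on simulated counts it recovered 23% of genes changed 4-fold and 49% of genes changed 8-fold.

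**Figure D5:**
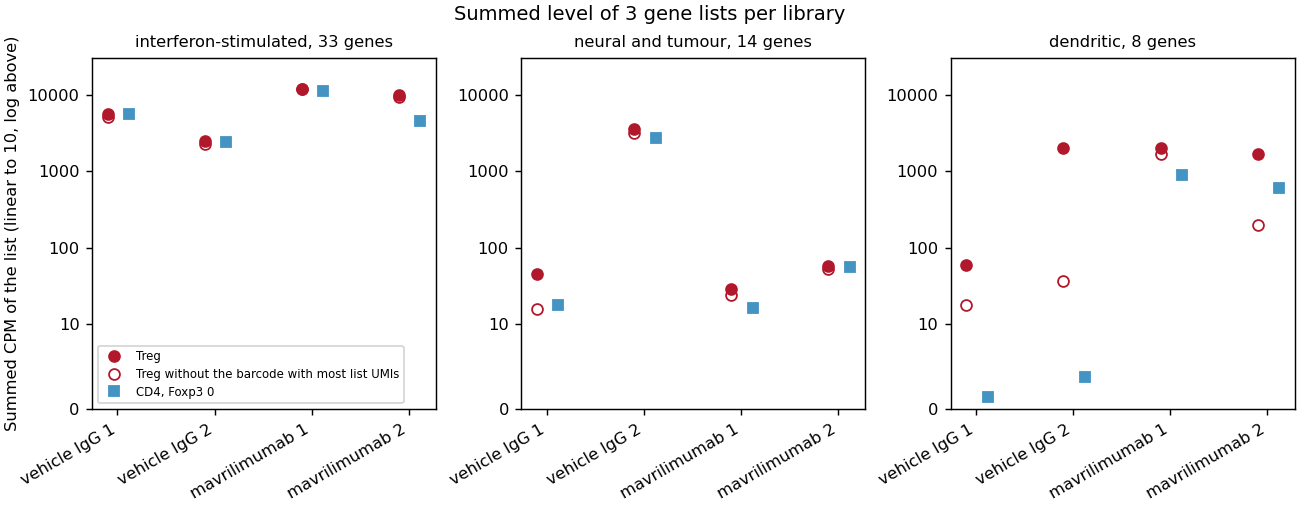
Summed level of the interferon-stimulated (33 genes), neural and tumor (14 genes) and dendritic (8 genes) lists in CPM (axis linear to 10 and logarithmic above) in Treg cells and Foxp3-negative CD4 cells of each library, with open circles for Treg cells after the barcode with the most UMIs of the list was left out. The neural list is high in both classes of vehicle IgG 2, and leaving out 1 barcode lowers the dendritic list in Treg cells from 1979 to 36.9 CPM in vehicle IgG 2 and from 1670 to 198 CPM in mavrilimumab 2.

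Whether the Treg to CD4 difference itself changed with treatment was tested as an interaction, with vehicle IgG 2 as the only vehicle library, so that the spread between libraries came from the 2 mavrilimumab libraries alone. On simulated counts this fit recovered 14% of genes changed 4-fold and 28% of genes changed 8-fold, the lowest of the 4 fits. Of 11199 genes, 29 (0.259%) passed, 7 (0.0625%) with a larger and 22 (0.196%) with a smaller Treg to CD4 ratio under mavrilimumab. No gene passed with DESeq2 (77 at an unadjusted p under 0.05) or with comparison cells of matched depth (493 at an unadjusted p under 0.05), and 3 passed without barcodes over 1% of UMIs from another cell type's list. None of the core, tissue, naive, helper, checkpoint or NF-kB genes was among them, with 2, 4, 1, 1, 1 and 1 of these lists at an unadjusted p under 0.05. Where CD4 cells needed no Cd4 UMI, 3 of 21 core and 8 of 26 tissue genes had a larger and 5 of 14 naive genes a smaller ratio under mavrilimumab, with 1 core and 1 tissue gene smaller, next to 1.36% of all 14014 genes tested there, 0.492% with a larger and 0.863% with a smaller ratio. Il2ra (0.82 ± 0.53), Ikzf2 (-0.66 ± 0.61), Tnfrsf4 (-0.91 ± 0.64) and Ctla4 (0.85 ± 0.47) were not called. Isg15 was called by edgeR, though under none of those 3 settings, with 32.8 CPM in Treg cells and 176 CPM in CD4 cells of vehicle IgG 2, 891 and 986 CPM in mavrilimumab 1, and 721 and 262 CPM in mavrilimumab 2. It was lower in Treg than in CD4 cells in the first 2 and higher in the last.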

How the data were processed

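CD45-sorted cells of mouse brain tumors were profiled with 10x 5-prime expression and receptor libraries, 2 per treatment for each kind, of which the receptor library of vehicle IgG 2 was not analysed here. The deposited matrices hold raw UMI counts per gene and barcode, which the authors made with Cell Ranger (9.0.1 in the matrix header, 7 and 7.1.0 in the submitters' processing notes) on mm10, and Scanpy 1.8.2 is named there too. They list 33696 genes and 24354457 to 148657643 UMIs per library, empty droplets included. The deposited receptor annotations give UMI and read counts per contig.

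A barcode was kept with 1000 or more UMIs, between 200 and 6000 detected genes and no more than 10% of UMIs from mitochondrial genes. No doublet caller was run. CD4 cells had the CD3 UMIs of Treg cells, at least 1 Cd4 UMI and no Foxp3, CD8 chain, Mki67 or Top2a UMI. CD8 cells had at least 2 Cd8a and Cd8b1 UMIs and no Cd4 or Foxp3 UMI. UMIs were summed per library and class where a class had at least 20 barcodes, and fitted with edgeR 4.0.16 (R 4.3.3, TMM scaling, filter on low counts, library as block, quasi-likelihood test, Benjamini-Hochberg adjustment, threshold 0.05), leaving out the 9 genes of the gates. DESeq2 1.42.0, limma-voom (limma 3.58.1), other filters, comparison cells and left-out libraries were alternatives. A sign-flip test planned for the cycling share is not reported, since the genes it counts chose the cells. Shares have exact Clopper-Pearson and summed counts exact Poisson 95% intervals, with Python 3.11.15, numpy 2.4.6, scipy 1.17.1 and pandas 2.3.3. On simulated counts, the fit of Treg against CD4 cells recovered 94% of genes changed 4-fold and that of Treg against CD8 cells 85%.

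Genes named were the markers of the label, up to 10 rises and 10 falls against CD4 cells with a mean of at least 20 CPM and 1 direction in every library, up to 5 of each for treatment, and up to 4 members per list. Other list members are given with their values, chosen after these were seen. The members and the 19 gene lists were chosen with earlier results of these data known. Gene positions are from RefSeq on GRCm38.p6. The replicate numbers of the libraries are names and pair no samples. Some list members are counted but not reported here by name.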

Additional observations from a re-analysis of the deposited data

Results flagged for a closer look

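In 12 named genes the Treg to CD4 ratio differed between treatments by edgeR's interaction test, with 1 vehicle library against 2. Of those tested, Scart1 alone also passed without barcodes over 1% of UMIs from another cell type's list, and none passed with DESeq2 or with cells of matched depth. On the log2 scale the difference was 3.05 for Isg15, 2.95 for Ddit4, a stress-induced inhibitor of mTOR signalling, and 3.14 for Ssbp3. Ddit4 was at 65.6 CPM in Treg and 142 CPM in CD4 cells of vehicle IgG 2, 174 and 78.5 CPM in mavrilimumab 1, and 202 and 29.7 CPM in mavrilimumab 2. Ssbp3 was at 21.9 and 101 CPM, 72.3 and 39.9 CPM, and 100 and 49.0 CPM in the same order. Scart1 had a fitted difference of 15.78, which is no bound because vehicle IgG 2 had 0 UMIs in Treg and 28 in CD4 cells. All 43 of its Treg UMIs in mavrilimumab 2 came from 1 barcode. The filter at 1% did not count the gamma-delta T or the CD8 and natural killer list, so passing it is no check on such barcodes. The gamma-delta list had 26 UMIs in 7 CD4 barcodes of vehicle IgG 2 and 33 UMIs in 1 Treg barcode of mavrilimumab 2. The part of gamma-delta cells in the Scart1 value was not tested.

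The antigen-presentation genes Cd74 (-12.46), H2-Aa (-10.95), H2-Eb1 (-9.49) and H2-Ab1 (-5.10) and the macrophage genes Lyz2 (-4.32) and Apoe (-2.10) had smaller fitted ratios under mavrilimumab. The CD4 cells of vehicle IgG 2 had 0 UMIs of Cd74, H2-Aa and H2-Eb1 and 1 UMI of H2-Ab1 and of Lyz2, so the fitted values of these 5 genes rest on 0 or 1 UMI in that group and are no bounds. Without barcodes over 1% of another list the direction turned for H2-Aa (1.88), H2-Ab1 (7.80) and Apoe (0.37). In vehicle IgG 2, a single Treg barcode held 108 of 111 Cd74 UMIs, all 38 of H2-Aa, all 16 of H2-Eb1 and 22 of 23 of Lyz2. Sdk1 (-8.91) and Adgrl3 (-6.99), both cell adhesion genes of neurons, were at 361 and 372 CPM in the Treg cells of vehicle IgG 2 and had no UMI in those of the mavrilimumab libraries, so their fitted values are no bounds either.

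Outside all comparisons, 169 of 1019 T cell barcodes with a Foxp3 UMI also held a CD8 chain UMI. They were 2 of 15 in vehicle IgG 1, 1 of 37 in vehicle IgG 2, 135 of 865 in mavrilimumab 1 and 31 of 102 in mavrilimumab 2.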

How the results depend on the processing

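The count of 482 genes between Treg and CD4 cells was 250 with DESeq2, 745 without a filter on low counts, 315 with Treg cells of at least 2 Foxp3 UMIs, 48 where Treg cells also needed a Cd4 UMI (2 libraries), and 308 to 661 with 1 library left out (308 without mavrilimumab 2, 661 without vehicle IgG 2). Without the library as a block it was 0, with 622 at an unadjusted p under 0.05. The count of 1403 against CD8 cells was 897 with DESeq2, 926 with comparison cells drawn to the depth of Treg cells, 172 without the library as a block, and 860 to 1688 with 1 library left out (860 without mavrilimumab 1). For treatment, 176 became 104 with limma-voom, 899 without a filter, 0 with vehicle IgG 1 included, 16 with the replicate block on those 4 libraries, and 101 without barcodes over 1% of another cell type's list, a setting added after seeing the data. The interaction count of 29 became 0 with DESeq2 (77 at an unadjusted p under 0.05), 13 with limma-voom, 15 with vehicle IgG 1, 190 where CD4 cells needed no Cd4 UMI, 0 with depth-matched cells (493 at an unadjusted p under 0.05) and 3 without the barcodes over 1%. The causes were not tested.

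Direction turned for Gzmb (-0.74 where CD4 cells needed no Cd4 UMI), and for Ctla4 between treatments, at 0.15 without a filter, 0.17 with vehicle IgG 1, 0.19 with the block on 4 libraries, 0.046 from 2000 UMIs and 0.12 at 5% mitochondrial UMIs. Interaction values turned for Ikzf2 (0.45) and Ctla4 (-0.50) without the need of Cd4, and for H2-Aa (1.88), Apoe (0.37) and H2-Ab1 (7.80) without barcodes over 1%. The share difference ranged from -0.144 to 17.8 points with 1 library left out. The cycling difference was -1.18 after thinning, -0.456 from 2000 UMIs, -1.55 without the need of Cd4, and -1.04 in the 1 library left after removing barcodes with 2 or more other-cell UMIs. The last setting gave 35.0 points for expanded clones (2 libraries, where mavrilimumab 2 had 1 of 2 Treg against 0 of 4 CD4 barcodes). The difference in expanded clones as reported ranged from 3.55 to 14.3 with 1 library left out. With those barcodes removed, no comparison across genes could be fitted. The treatment and interaction fits could not be made without vehicle IgG 2, mavrilimumab 1 or mavrilimumab 2, or with at least 2 Foxp3 UMIs, nor the interaction with Cd4 in Treg cells, nor treatment with the block on 3 libraries. Same-numbered libraries deviated with correlations of 0.0989 in Treg, 0.0753 in CD4 and 0.157 in CD8 sums. Vehicle IgG 1 is limited by its 8 Treg barcodes, whose sum makes 1 UMI worth 14.9 CPM.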
